A study of Homo sapiens with 6 samples.

Results

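Long intergenic noncoding RNAs that carry a LINC symbol were measured in SW480 cells, a human colorectal adenocarcinoma line, after exposure to dihydroartemisinin (DHA), an antimalarial drug into which artemisinin compounds are converted in the body. The transcripts were chosen as the genes of the deposited count table whose name is LINC followed by a number and whose mean over the 6 libraries was at least 1 CPM, where CPM is the count scaled to 1000000 reads of the library. This left 134 of 1521 LINC names, out of 39293 gene names in the table. The level over all libraries therefore decided membership, so the levels themselves are a description, and a transcript could enter through the group in which it was high. All libraries were made from poly(A) RNA of SW480, with 3 control wells given 0.1% DMSO and 3 wells given DHA at 20 µg/mL, each for 4 h. SW480 is 1 line, and separate cultures are not stated for the wells, so a p-value here reflects well-to-well spread alone, possibly technical. A fall in a transcript and a loss of the cells that carry it cannot be told apart in bulk RNA.

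LINC symbols are given to long noncoding RNA genes that lie apart from protein-coding genes and have no better name. Like messenger RNAs they are mostly spliced and polyadenylated, but they are often made at low level, and many are kept in the nucleus. Some act on the gene next to them, some bind proteins or microRNAs, some turned out to encode small proteins, and for most no function is known. Several, such as LINC00511, LINC00460 and LINC00346, are known for raised levels in carcinomas.

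The label held only in part when the genes were looked up in the GENCODE release 29 annotation. Of the 134 transcripts, 99 were annotated as lincRNA, 12 as processed transcript, 12 as some kind of pseudogene, 6 as antisense, 3 as arising from a bidirectional promoter, and LINC00116 and LINC00672 as protein-coding. By position, 83 were intergenic, 13 started head to head with a protein-coding gene within 5 kb, 16 lay downstream of one on the same strand within 10 kb, and 22 overlapped one. Of the 134, 20 shared at least 25% of their 31-base words with another gene, some of the overlapping ones among them. No source used here says whether the authors counted by strand, so reads of these transcripts and of overlapping genes could not be told apart.

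Promoters are shown for 6 transcripts that carry the contrasts described below. LINC01504 and LINC00346 rose and LINC00460 did not pass the test, although all 3 hold the same AP-1 motif. LINC00243 and LINC00511 rose and LINC02035 fell, and the window shown for each of these holds no searched motif. For LINC02035 that window ends before the deposited start of the gene, so it does not cover that start. Each sequence runs from 250 bases before to 50 bases after the RefSeq start site in GRCh38.p14, and capitals mark matches to AP-1 or to the antioxidant response element. They lie at chr9:72305186-72305485 on the plus strand for LINC01504, chr13:110870259-110870558 on the minus strand for LINC00346 (PRECSIT in RefSeq), chr13:106376314-106376613 on the plus strand for LINC00460, chr6:30830610-30830909 on the minus strand for LINC00243, chr17:72640423-72640722 on the minus strand for LINC00511 and chr3:122886263-122886562 on the plus strand for LINC02035.
LINC01504: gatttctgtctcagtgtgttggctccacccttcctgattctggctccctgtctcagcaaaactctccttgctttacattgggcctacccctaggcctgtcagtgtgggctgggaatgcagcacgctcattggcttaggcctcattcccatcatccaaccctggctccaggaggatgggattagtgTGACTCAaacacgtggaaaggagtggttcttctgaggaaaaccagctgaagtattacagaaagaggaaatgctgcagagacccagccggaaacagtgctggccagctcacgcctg
LINC00346: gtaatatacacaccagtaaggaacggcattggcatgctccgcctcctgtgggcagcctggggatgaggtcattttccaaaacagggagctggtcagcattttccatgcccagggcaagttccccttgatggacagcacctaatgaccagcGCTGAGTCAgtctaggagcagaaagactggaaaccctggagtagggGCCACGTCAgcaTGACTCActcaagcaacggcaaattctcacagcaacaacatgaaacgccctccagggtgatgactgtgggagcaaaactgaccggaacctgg
LINC00460: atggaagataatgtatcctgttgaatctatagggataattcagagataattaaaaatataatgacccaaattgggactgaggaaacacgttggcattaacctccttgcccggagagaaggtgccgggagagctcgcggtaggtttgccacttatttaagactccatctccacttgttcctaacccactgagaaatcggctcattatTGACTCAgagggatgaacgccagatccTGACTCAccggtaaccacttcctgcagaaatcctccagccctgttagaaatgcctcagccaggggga
LINC00243: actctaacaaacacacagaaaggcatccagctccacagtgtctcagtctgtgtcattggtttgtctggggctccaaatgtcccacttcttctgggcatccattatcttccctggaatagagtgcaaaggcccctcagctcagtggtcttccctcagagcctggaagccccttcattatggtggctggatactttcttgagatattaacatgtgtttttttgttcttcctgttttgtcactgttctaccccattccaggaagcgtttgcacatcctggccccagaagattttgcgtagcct
LINC00511: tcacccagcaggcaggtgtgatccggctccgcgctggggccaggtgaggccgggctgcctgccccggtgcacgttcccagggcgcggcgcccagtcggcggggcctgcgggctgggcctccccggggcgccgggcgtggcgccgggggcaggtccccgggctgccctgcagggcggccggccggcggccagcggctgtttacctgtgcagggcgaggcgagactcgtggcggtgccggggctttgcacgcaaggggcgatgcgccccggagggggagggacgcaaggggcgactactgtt
LINC02035: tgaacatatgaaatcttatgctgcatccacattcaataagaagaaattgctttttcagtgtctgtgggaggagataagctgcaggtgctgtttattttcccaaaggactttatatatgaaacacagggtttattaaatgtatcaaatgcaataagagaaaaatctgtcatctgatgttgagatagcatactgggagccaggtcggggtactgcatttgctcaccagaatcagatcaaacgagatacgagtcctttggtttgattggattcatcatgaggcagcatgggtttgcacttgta

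Of the 134 transcripts, 67 matched a RefSeq promoter whose start site lay within 500 bases of the deposited one. The motif of AP-1, the dimer of FOS and JUN proteins that binds DNA after many stresses, was searched as TGANTCA on both strands. It stood in 3 of the 67 promoters, against 7.77% of all 27326 RefSeq promoters. LINC01504 held TGACTCA at 65 bases before its start site, LINC00346 held TGAGTCA at 98 and TGACTCA at 42 bases before it, and LINC00460 held TGACTCA at 44 and at 17 bases before it. The antioxidant response element, TGACNNNGC on both strands, stood in 11 of 67 promoters, against 13.6% of all promoters, and both of its matches in LINC00346 were on the reverse strand, the first of them over the same bases as TGAGTCA. The cyclic AMP response element TGACGTCA was found in 2 of 67, against 1.98% of all. The serum response element and the heat shock element were each searched as a set pattern of letters, the former with no free position. These patterns matched 0.0366% and 0.490% of all RefSeq promoters and 0 of these 67 windows. Patterns so rare would be likely to miss 67 windows in any case, so nothing is concluded about either element. A match is a run of letters and not a binding site that was measured.

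The libraries held between 14291726 and 18938456 counts, so that 3 counts correspond to 0.158 to 0.210 CPM. Marker genes of intestinal epithelium were abundant, with 7 of 8 at a mean of at least 1 CPM (VIL1 was below) and a summed level of 4300 to 4685 CPM in control and 5623 to 5775 CPM in DHA libraries. Keratin genes carried most of this rise, and the means of ELF3 (57.0 to 151 CPM) and VIL1 (0.137 to 0.640 CPM) were also higher. The means of EPCAM (232 to 206 CPM), CDH1 (98.9 to 76.3 CPM) and CDX2 (33.3 to 29.5 CPM) were lower in DHA libraries. Of the leukocyte markers, PTPRC was at 0 in every library, and the summed level was 0.443 to 1.06 CPM in control and 3.30 to 5.60 CPM in DHA libraries, most of it CD14. Of the fibroblast markers, COL1A2, DCN and LUM were at 0, and the sum of 21.0 to 29.6 CPM in control and 70.6 to 93.1 CPM in DHA libraries was nearly all COL1A1. The part of these genes in the results was not tested.

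After 4 h of DHA the LINC transcripts changed in both directions, with the largest rises well beyond the largest falls. At an adjusted p under 0.05 (edgeR's quasi-likelihood test, Benjamini-Hochberg over 15811 genes), 47 of the 134 rose and 24 fell, while 63 did not pass. As background, 29.6% of all tested genes were called higher and 30.1% lower, against 35.1% and 17.9% of these transcripts. At least 2-fold changes were called in 31 transcripts upward and 5 downward, against 10.7% and 4.96% of all tested genes. Without control replicate 1 the 5 became 8, and with limma on log2(CPM + 1) the 31 became 16. With an offset for GC content and length, 24 were called upward and 12 downward. Of the 31, 15 had a control mean of at least 1 CPM. The DHA libraries all lay above the control libraries in 48 transcripts and all below in 30, against 27% and 38.4% of all tested genes. Among genes with a mean of 1 to 5 CPM, the range in which 93 of the transcripts lay, 31.2% were called higher and 13.5% lower, and 35.5% and 15.1% of those 93 transcripts were, so that at matched level the shares were near the background. At least 2-fold calls in that range came to 24.7% upward and 3.23% downward of the 93, against 20.3% and 6.3% of genes. The median log2 fold change was 0.27 over the 134 transcripts and 0.01 over all tested genes. With another scaling of the filtered genes (RLE size factors) the medians were 0.29 and 0.03. They were 0.26 and 0.24 in DESeq2, and 0.20 and 0.15 in edgeR with no filter on low counts. Both of these fits took in genes that the filter leaves out. Their median over all genes therefore covers another set of genes than the 15811, and the gaps are not like for like.

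**Figure D1:**
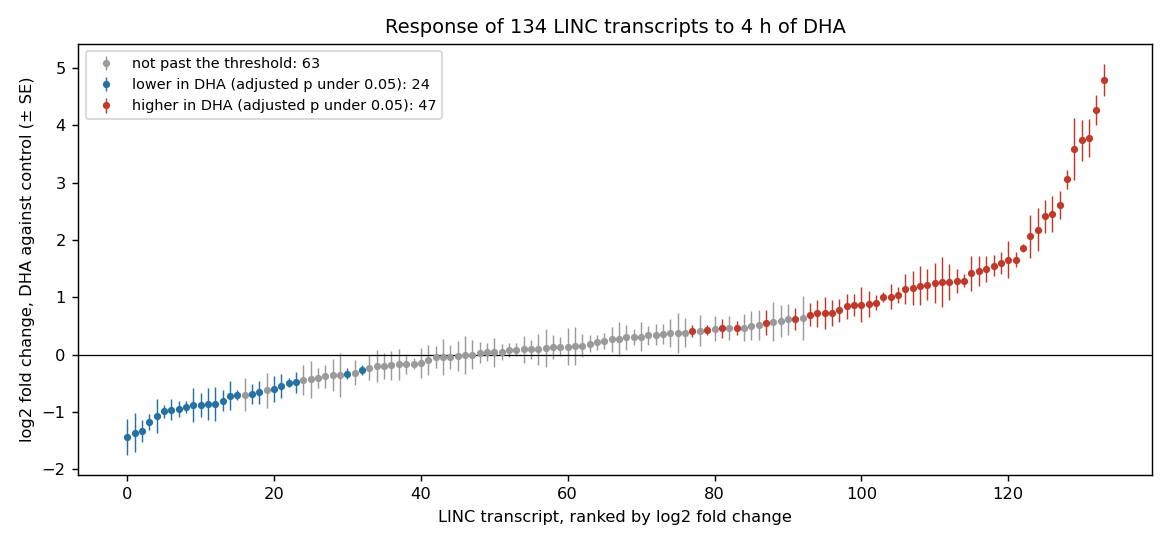
Log2 fold change of each of the 134 LINC transcripts (y axis, DHA against control, bars ± SE derived from edgeR's test, n = 3 libraries per group), ranked from the most lowered to the most raised (x axis). The 24 called lower reach -1.44 and the 47 called higher reach 4.79, and 63 transcripts between them did not pass the threshold.

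The choice by mean level took part in this balance. There were 18 transcripts whose control mean was under 1 CPM, which were chosen only because of their level in DHA libraries, and 17 of these were called higher. Among the 116 with a control mean of at least 1 CPM, 30 were called higher and 24 lower, with a median log2 fold change of 0.12. Conversely, 6 had a DHA mean under 1 CPM, and 5 of these were called lower. Just inside the threshold stood LINC01311 at 1.02, LINC01770 at 1.02 and LINC01814 at 1.04 mean CPM; just outside stood LINC01011 at 1.001 (below 1 once the library totals include all lines of the table), LINC01003 at 0.987 and LINC01273 at 0.977 mean CPM.

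**Figure D2:**
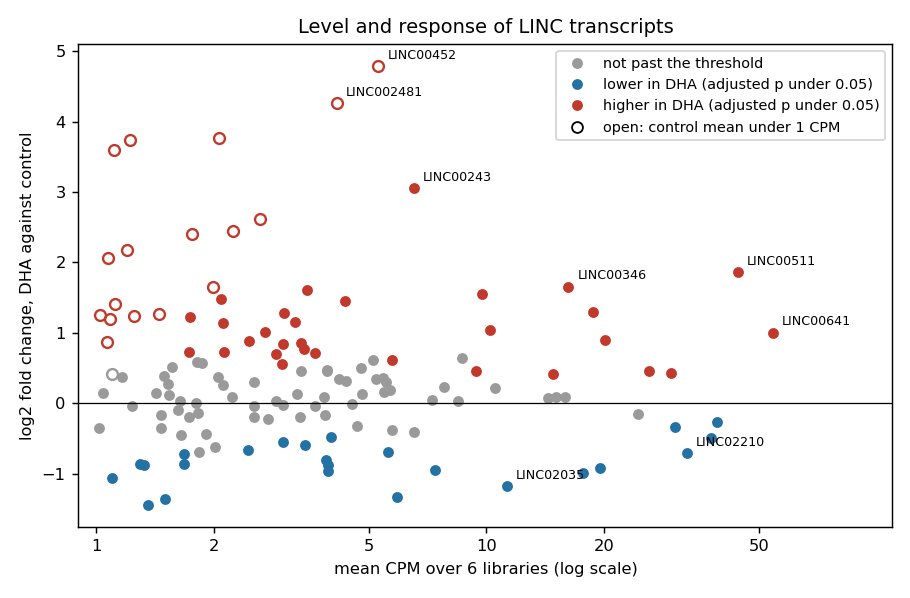
Mean level over the 6 libraries (x axis, CPM, log scale) and log2 fold change (y axis, DHA against control, edgeR) of the 134 LINC transcripts, one point each, coloured by whether the change passed an adjusted p of 0.05. Open points mark the 18 transcripts with a control mean under 1 CPM, 17 of which were called higher; LINC00243, LINC00511 and LINC00346 rose from control means above 1 CPM.

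The largest rise was in LINC00452, an intergenic transcript on chromosome 13 (113888306 to 113923512, plus strand). Its level was 0.686, 0.190 and 0.240 CPM in the control libraries, from 13, 3 and 4 counts, and 10.5, 10.4 and 9.73 CPM in the DHA libraries. The groups lay far apart, and the log2 fold change was 4.79 ± 0.28 (SE, n = 3 per group, edgeR adjusted p = 1.08e-07). LINC002481, listed in RefSeq as LINC02481 (chromosome 4, 6687448 to 6690519, minus strand), stood at 0.422, 0.316 and 0.540 CPM in control and 7.83, 6.55 and 9.17 CPM in DHA libraries. It was low in every control well and high in every DHA well, with a log2 fold change of 4.27 ± 0.26 (edgeR adjusted p = 1.42e-07). LINC01504 on chromosome 9 (72305430 to 72343210, plus strand) was at 0.211, 0.190 and 0.480 CPM in control and 4.32, 3.72 and 3.43 CPM in DHA libraries, a log2 fold change of 3.77 ± 0.33 (edgeR adjusted p = 1.97e-06).

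LINC00243, a spliced transcript of chromosome 6 (30798654 to 30830659, minus strand), was the only one of the 10 largest rises with a control mean above 1 CPM. Its level was 1.43, 1.64 and 1.38 CPM in control and 12.2, 11.4 and 11.0 CPM in DHA libraries, and the log2 fold change was 3.05 ± 0.16 (edgeR adjusted p = 4.41e-08). The remaining transcripts of the 10 largest rises had control means under 1 CPM, and those of LINC01970 and LINC01554 were close to the counting floor. LINC01970 rose from 0.174 ± 0.0478 to 2.27 ± 0.287 CPM (SD, n = 3), and LINC01554, which had no count in control replicate 2, from 0.168 ± 0.146 to 2.06 ± 0.712 CPM. LINC02323, LINC01004, LINC00659 and LINC00324 had log2 fold changes of 2.61, 2.45, 2.41 and 2.18, and in each the DHA libraries all lay above the control libraries. LINC01004 and LINC00659 are annotated as antisense.

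**Figure D3:**
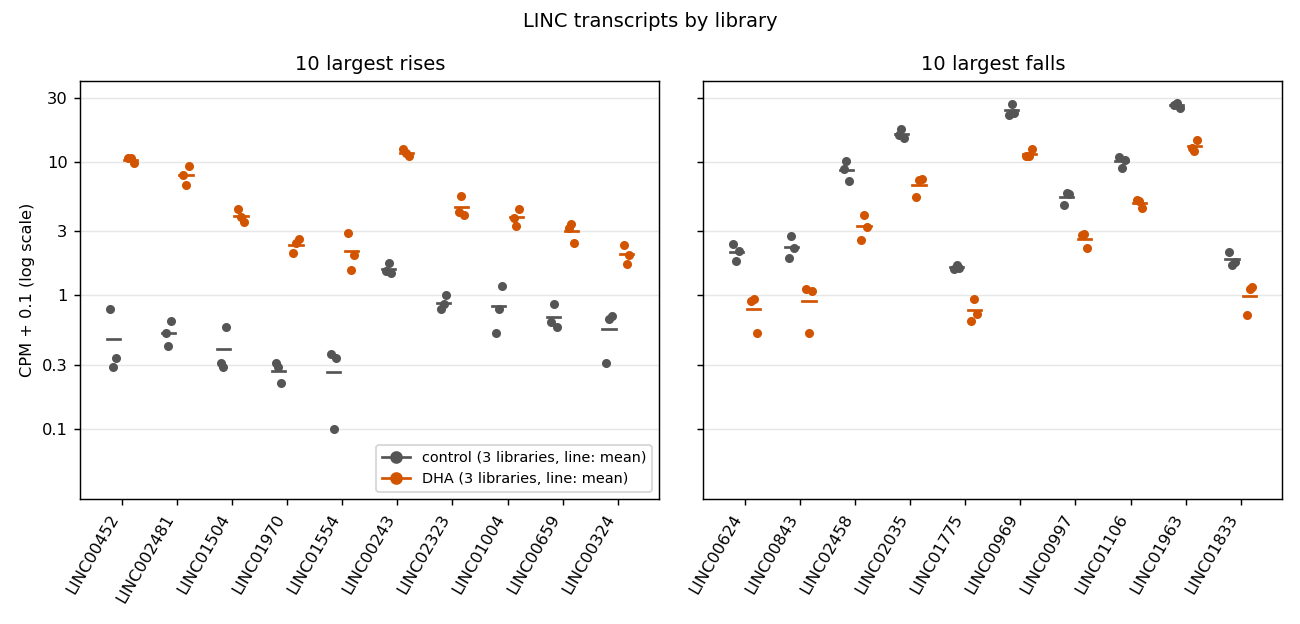
Level in each library (y axis, CPM + 0.1 on a log scale; points are libraries, lines are means of 3) of the 10 LINC transcripts with the largest rises (left) and the 10 with the largest falls (right) among those past an adjusted p of 0.05 with no overlap between groups. LINC00452 moved from under 1 to about 10 CPM, while the falls, such as LINC02035 from 15.96 to 6.59 CPM, stayed closer to their control level.

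Among the abundant transcripts, LINC00511, LINC00346 and LINC00641 rose. LINC00511, known for raised levels in several carcinomas, lies on chromosome 17 (72323123 to 72640472, minus strand) and stood at 19.3, 20.9 and 20.0 CPM in control and 66.9, 70.8 and 66.6 CPM in DHA libraries. Its wells were tightly grouped, and the log2 fold change of 1.86 ± 0.08 had the smallest SE of the 134 transcripts (edgeR adjusted p = 5.80e-09). LINC00346, a single-exon transcript of chromosome 13 (110863987 to 110870251, minus strand), was at 8.71, 7.47 and 8.45 CPM in control and 20.8, 29.4 and 22.7 CPM in DHA libraries, with a log2 fold change of 1.66 ± 0.14 (edgeR adjusted p = 1.26e-06). LINC00641 had the most counts of all, 36.6, 38.5 and 38.3 CPM in control and 74.3, 62.8 and 75.8 CPM in DHA libraries, a log2 fold change of 1.005 ± 0.09 (edgeR adjusted p = 2.78e-06). Also at least 2-fold higher were LINC00265, from 11.4 ± 1.28 to 26.2 ± 2.63 CPM, and LINC00941, from 5.21 ± 1.47 to 14.3 ± 1.73 CPM; both were named after their values were seen. LINC00941 shares 92.2% of its 31-base words with a second entry of that name, and LINC00265 shares 25.5% with the pseudogene GTF2IP13.

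The falls were smaller. LINC02035, a single-exon transcript of chromosome 3 (122886941 to 122892416, plus strand), was at 15.7, 17.3 and 14.9 CPM in control and 5.33, 7.15 and 7.28 CPM in DHA libraries, and fell by 1.178 on the log2 scale (SE 0.14, edgeR adjusted p = 1.86e-05). LINC02458 was at 8.71, 10.1 and 7.01 CPM in control and 2.50, 3.90 and 3.15 CPM in DHA libraries and fell by 1.33 (SE 0.19, edgeR adjusted p = 0.000112). Every DHA well of both lay below every control well. LINC01963, from 26.2 ± 1.11 to 12.98 ± 1.298 CPM, and LINC00969, from 24.0 ± 2.48 to 11.3 ± 0.794 CPM, fell by 0.92 and 0.99. LINC00969 overlaps other genes in its exons, 24.1% of them shared with the pseudogene SDHAP2.

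The largest fall, in LINC00624, rested on few counts, with 2.32, 1.71 and 2.04 CPM in control and 0.810, 0.841 and 0.420 CPM in DHA libraries; the log2 fold change was -1.44 ± 0.31 (edgeR adjusted p = 0.00188). LINC00843, at -1.36 ± 0.34, shares 59.6% of its words with the pseudogene PARGP1. LINC01106 and LINC01123 fell together, by 0.95 and 0.68, yet 90.4% and 71.1% of their words are shared with each other, so the pair may hold the same reads. LINC00997 fell from 5.33 ± 0.588 to 2.54 ± 0.326 CPM. LINC01775 fell by 1.06, with an adjusted p of 0.0691 in DESeq2. LINC01833 fell by 0.88, and its call was lost in DESeq2 (adjusted p = 0.112) and in edgeR without control replicate 1 (adjusted p = 0.0838) and without DHA replicate 1 (adjusted p = 0.0978). In all, the falls that passed ran from -1.44 to -0.27 with a median of -0.86, and the rises from 0.41 to 4.79 with a median of 1.25. The choice by mean level took part in this contrast of sizes too. The 18 transcripts with a control mean under 1 CPM, 17 of them called higher, had a median of 2.12. The 6 with a DHA mean under 1 CPM had a median of -0.97.

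Per length the order of levels was different from that of the counts. The mean level of the 134 transcripts ran from 1.02 to 54.4 CPM with a median of 3.13, and 21 reached 10 CPM. Per kilobase of exons, LINC02331 was highest at 23.9 CPM per kb, followed by LINC01468 (LNCAROD in RefSeq) at 18.7, LINC00839 at 12.8, LINC00641 at 9.52 and LINC01234 at 8.72 CPM per kb. LINC02331 and LINC00839 were picked from this order. LINC02331 did not pass the test, with 14.5 ± 1.63 CPM in control and 14.3 ± 0.978 CPM in DHA libraries, and LINC00839 rose from 26.3 ± 2.25 to 33.3 ± 0.415 CPM.

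Other abundant transcripts fell, and the calls of LINC01128 and LINC01234 among them depended on single libraries. LINC01468 was at 46.5, 44.7 and 43.9 CPM in control and 27.3, 32.4 and 30.6 CPM in DHA libraries, and fell by 0.48 (SE 0.08, edgeR adjusted p = 0.000346). LINC02210, a transcribed unitary pseudogene, was at 40.7, 44.0 and 39.9 CPM in control and 21.3, 25.5 and 24.6 CPM in DHA libraries and fell by 0.71 (SE 0.09, edgeR adjusted p = 3.56e-05). LINC01128 went from 34.8 ± 0.522 to 26.0 ± 3.19 CPM, with a log2 fold change of -0.33 that did not pass without DHA replicate 2 (-0.19, edgeR adjusted p = 0.0547) or with the GC and length offset (adjusted p = 0.0857). LINC01234, from 44.0 ± 3.15 to 34.2 ± 2.60 CPM, had a log2 fold change of -0.27 that did not pass without control replicate 1 or 3 or without DHA replicate 1 or 2, where the adjusted p ran from 0.0573 to 0.0977.

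Summed over the 134 transcripts, the level was 776, 831 and 791 CPM in control and 899, 957 and 906 CPM in DHA libraries. Every DHA well lay above every control well, and the mean difference was 121 CPM. No test of this difference is reported here, since these levels chose the transcripts. Without LINC00641 alone the difference was 88.0 CPM, and over the transcripts with a control mean of at least 1 CPM it was 77.1 CPM.

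Lists of LINC genes with a known role were small in these cells. Of 17 names described in carcinomas, 15 were in the table and 8 were among the 134, of which LINC00511, LINC00346, LINC00963 and LINC00324 rose, LINC01234 fell, and LINC00460, LINC00662 and LINC00467 did not pass. LINC00467 passed as higher with the GC and length offset (0.32, edgeR adjusted p = 0.0341) and without DHA replicate 2 (0.32, edgeR adjusted p = 0.0451), and LINC00662 without control replicate 2 (0.32, edgeR adjusted p = 0.0395). LINC00460 was at 3.06, 2.91 and 2.88 CPM in control and 2.50, 3.06 and 2.94 CPM in DHA libraries, with a log2 fold change of 0.04 ± 0.19. The groups of LINC00460 overlapped, unlike those of LINC01504 and LINC00346. LINC00963 was high in 1 DHA well, with 21.1, 25.6 and 22.0 CPM in control and 24.8, 40.1 and 23.1 CPM in DHA libraries; without DHA replicate 2 its log2 fold change was 0.21 (edgeR adjusted p = 0.0995), and it also missed the threshold without control replicate 1 or 3, with library totals as the scale and in limma.

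Of 7 LINC symbols now known to encode small proteins, LINC00116, which encodes the mitochondrial peptide mitoregulin, was the one present under its LINC name, at 5.35 ± 0.870 CPM in control and 5.59 ± 1.41 CPM in DHA libraries (edgeR adjusted p = 0.512). Under their later names, SMIM26 had a log2 fold change of 1.41, SMIM30 of -0.32 and NBDY of -0.02, and SMIM26 and SMIM30 passed the threshold. Of 6 LINC symbols that have been renamed for a function or a neighbour, LINC01578 (CHASERR, which lowers its neighbour CHD2) was the one present under its LINC name. Its level was 5.70, 6.64 and 8.87 CPM in control and 6.55, 19.0 and 5.18 CPM in DHA libraries, so that 1 DHA well stood apart (edgeR adjusted p = 0.166). Without DHA replicate 3 it passed as higher (0.96, edgeR adjusted p = 0.0270), as it did with no filter on low counts, and without DHA replicate 2 its log2 fold change was -0.13. NORAD, which binds Pumilio proteins, fell by 0.41, BRD3OS fell by 0.75, and CYTOR and SNHG20 rose by 0.72 and 0.65. LINC00473, a target of cyclic AMP signalling, had a mean of 0.0100 CPM, and none of 4 LINC genes listed as near developmental transcription factors reached 1 CPM.

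DHA replicate 2 was high in several transcripts. It reached at least 1.5 times the mean of the other DHA wells in 18 of the 134 (13.4%), against 6.54% of all genes with a mean of at least 1 CPM. It reached at most the inverse of that in 3, for which no background was counted. The background was not matched for level, and 93 of the 134 had a mean of 1 to 5 CPM, where counts are few. These shares therefore do not show whether the gap is particular to LINC transcripts. LINC01578 and LINC00963 are among the 18, as is LINC00674, with 2.16, 7.33 and 3.57 CPM in the DHA libraries; the last was named after its values were seen. The other DHA wells lay within the control range for LINC00963 and below it for LINC00674, and for LINC01578 1 lay within and 1 below.

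The nearest protein-coding gene had been tested for 59 of the 71 transcripts that passed. It passed in the same direction for 26, in the opposite direction for 10, and did not pass for 23. Over all genes that passed, the nearest protein-coding gene went the same way in 42.4% and the opposite way in 21.2%. The higher transcripts had a higher neighbour in 20 of 43 cases, against 45.6% for all higher genes, and the lower transcripts had a lower neighbour in 6 of 16, against 38.9% for all lower genes. By these calls, LINC transcripts therefore moved with their neighbour about as often as other genes did.

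**Figure D4:**
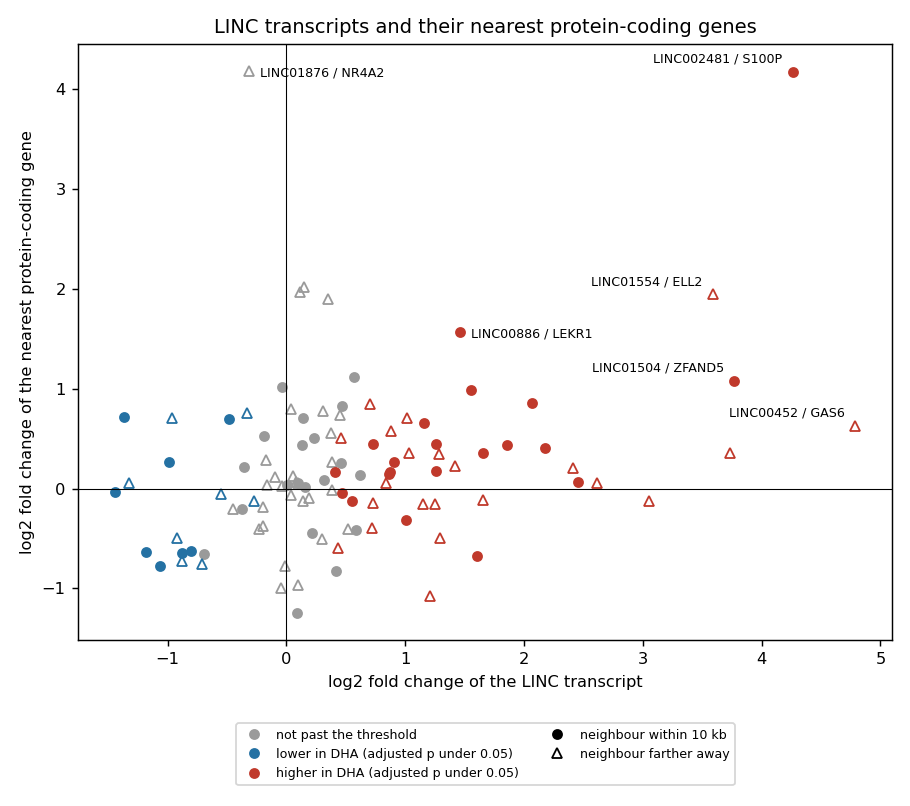
Log2 fold change of each LINC transcript (x axis) and of its nearest protein-coding gene (y axis), DHA against control by edgeR, where the neighbour was tested; circles are neighbours within 10 kb and triangles are farther away. LINC002481 and S100P rose together (4.27 and 4.18), while LINC01876 lay near NR4A2 (4.18) and had a log2 fold change of -0.31.

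Beside the transcripts that passed, the largest change of a neighbour was in S100P, which encodes a calcium-binding protein of epithelial tumours and lies head to head with LINC002481 at 2.55 kb. S100P was at 0.422, 0.127 and 0.2997 CPM in control and 5.67, 4.56 and 4.90 CPM in DHA libraries, a log2 fold change of 4.18 ± 0.31 (edgeR adjusted p = 6.64e-07). Both genes were near the counting floor in every control well and well above it in every DHA well. ELL2, an elongation factor of RNA polymerase II 24.96 kb from LINC01554, was at 49.8, 54.3 and 46.5 CPM in control and 186, 164 and 192 CPM in DHA libraries, a log2 fold change of 1.95 ± 0.09. ZFAND5, a zinc finger protein that stimulates the proteasome, 8.22 kb from LINC01504, rose by 1.08 ± 0.08, and GAS6, a ligand of the AXL family of receptors, 24.2 kb from LINC00452, rose by 0.63 ± 0.12. All 4 neighbours rose with their LINC transcript, and for LINC00452 and LINC01504 the neighbour's fold change was far the smaller.

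Other neighbours did not follow. DDR1, a collagen receptor and the nearest gene to LINC00243, had a log2 fold change of -0.13 ± 0.08 (edgeR adjusted p = 0.203). It passed as lower in 6 of 15 alternatives, among them the one without DHA replicate 2 (-0.19, edgeR adjusted p = 0.00823) and the GC and length offset (-0.33, edgeR adjusted p = 0.00142). HNRNPC, an RNA-binding protein 2.24 kb from LINC00641, fell by 0.31 while LINC00641 rose, a call that was lost with an offset for GC content and length. LASP1, an actin-binding protein, fell by 0.67 and RALA, a small GTPase, by 0.49, while LINC00672 and LINC00265 beside them rose by 1.60 and 1.29. Next to falling transcripts, LMNB2, which encodes lamin B2, fell by 0.78 beside LINC01775, and XRCC5, the Ku80 subunit of DNA end binding, fell by 0.50 beside LINC01963, whereas TIMM23B rose by 0.72 across LINC00843 and KBTBD2 rose by 0.71 near LINC00997.

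Conversely, the neighbour changed by at least 1.5 on the log2 scale, in either direction, beside 7 of the 134 transcripts. Of these, LINC002481, LINC01554 and LINC00886 (beside LEKR1), rose, and the other 4 did not pass. LINC01876 lay 69.5 kb from NR4A2, an orphan nuclear receptor of the immediate early response, which went from 22.9 ± 3.53 to 388 ± 26.6 CPM (log2 fold change 4.18 ± 0.11, edgeR adjusted p = 2.37e-10). LINC01876 itself was at 4.86, 5.95 and 5.16 CPM in control and 2.97, 3.66 and 5.39 CPM in DHA libraries, and its groups overlapped (edgeR adjusted p = 0.229). LINC01814 near ID2, LINC01270 near CEBPB and LINC00513 near KLF14 had log2 fold changes of 0.15, 0.12 and 0.35 beside neighbours at 2.02, 1.97 and 1.90. These pairs, and those of LASP1 and RALA, were picked after their values were seen.

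LINC transcripts within 250 kb of each other formed 9 pairs. In 6 pairs both members passed in the same direction, in 3 pairs 1 or none passed, and no pair was called in opposite directions. Over all pairs of tested genes within that distance, both passed in the same direction in 24.6% and in opposite directions in 13.2%. The pairs are few and not independent, and 3 of the 6 came from the same 3 transcripts. The 6 were the pairs among LINC00943, LINC00944 and LINC02405 on chromosome 12 (log2 fold changes 1.25, 1.15 and 1.22), LINC00346 with LINC00431 on chromosome 13 (1.66 and 1.04), LINC00452 with LINC00565 on chromosome 13 (4.79 and 1.42), and LINC01503 with LINC00963 on chromosome 9 (0.70 and 0.46). LINC00452 and LINC00565 lie 3.00 kb apart on opposite strands, and LINC00943 overlaps LINC00944 on the other strand.

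By position, rises passed in 26 of 83 intergenic, 6 of 13 head-to-head, 8 of 16 downstream, 5 of 11 antisense-overlapping and 2 of 11 same-strand overlapping transcripts, and falls in 15, 2, 2, 1 and 4. Over all tested genes the shares called higher in these classes were 26.0%, 33.8%, 40.9%, 30.5% and 25.3%, and the shares called lower 35.9%, 27.4%, 22.0%, 25.8% and 28.9%. Of the 83 intergenic transcripts, 31.3% were called higher and 18.1% lower. Leaving out transcripts with at least 25% of their words or exons shared with another gene, an alternative added after the data were seen, 37 of 113 were called higher and 20 lower. Median GC content was 49.9% in the higher, 47.4% in the lower and 48.0% in the uncalled transcripts, and 5 of 24 lower against 2 of 47 higher transcripts had a single exon. No test was made of these features.

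In the authors' deposited table of genes past their own limits, 80 LINC names were listed, 75 as up and 5 as down, and 32 of these were among the 134. All 32 were among the 36 transcripts called here with at least a 2-fold change, in the same direction, and the log2 fold changes of the authors' deposited table differed from those given here by at most 0.0698.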

How the data were processed

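Poly(A) RNA was sequenced from 3 control and 3 DHA wells of SW480, grouped by their treatment labels. The authors deposited raw read counts per gene. HISAT2 and DESeq2 1.18.1 are named in the submitters' processing notes; how reads were counted, with which strand setting, annotation and build, is not stated in the sources used here. GENCODE release 29 (GRCh38) held 40715 of the identifiers, 97.0% at the same coordinates, and supplied gene types and distances; coordinates printed are those of the deposited table. A second table that the authors deposited holds the log2 fold changes and p-values of their own comparison. A table named for FPKM was not used.

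One entry per gene name was kept, since 1696 lines share 143 names with identical counts, and 32 lines of text were left out. CPM is the count divided by the library total over these names. TMM-scaled counts of the 15811 genes that passed filterByExpr were fitted in edgeR 4.0.16 under R 4.3.3 without a replicate block, and tested by quasi-likelihood with adjustment after Benjamini and Hochberg. The SE of a log2 fold change is not an output of that test. It was derived as the absolute log2 fold change divided by the square root of the test's F statistic. On simulated data of 15733 genes, 95.5% of 200 genes changed by known folds were recovered, with 7 false calls. The simulation gave every gene the same spread, and changed few genes, each by at least 2-fold. These rates therefore need not hold for the LINC transcripts, where counts are low and many genes changed. Floors cover counting error only.

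Transcripts named are the 10 largest rises and falls past the threshold whose groups do not overlap, the 6 with the most counts, members of the lists, some of the nearest protein-coding genes of these, and those at the threshold of 1 CPM; others are said to have been picked afterwards. Not all neighbours are reported here. The transcripts and lists were chosen with earlier results of these data known. Alternatives were other scalings, tests (limma 3.58.1, DESeq2 1.42.0) and filters, a replicate block, a GC and length offset, and each library left out. Python 3.11.15 was used for tables (pandas 2.3.3, numpy 2.4.6) and plots (matplotlib 3.10.9).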

Additional observations from a re-analysis of the deposited data

How the results depend on the processing

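Of 33 LINC transcripts named by the rule, 23 kept their call under all 15 alternatives; 5 lost it under at least 1 (LINC01775, LINC01833, LINC01234, LINC01128 and LINC00963), and of the other 5, none of which had passed, 3 gained a call (LINC00467, LINC00662 and LINC01578) and 4 changed sign. The calls of neighbours were less stable. Of 28 nearest protein-coding genes of these named transcripts, 14 kept their call under all 15 alternatives. Among the rest, 5 lost a call, 5 gained one and 7 changed sign, some in more than 1 of these ways. The counts of LINC transcripts called higher and lower, 47 and 24, were 41 and 15 in DESeq2 and ranged from 42 to 47 and from 17 to 24 when 1 library was left out. In every alternative 34 of the 47 and 12 of the 24 were called. Of transcripts with a control mean of at least 1 CPM, 30 were called higher. The 31 rises of at least 2-fold became 16 with limma on log2(CPM + 1) and 24 with the GC and length offset. The 5 such falls became 8 without control replicate 1, 9 with library totals and 8 without a low-count filter. They became 3 with limma and 12 with the GC and length offset. That offset moved the median log2 fold change of all genes by -0.10 and left 41 transcripts higher and 29 lower, with a median of 0.10 against -0.09 for all genes. Replicate numbers did not pair the wells (correlations of deviations 0.021, -0.084 and -0.054); with the replicate block, 45 transcripts were called higher and 20 lower, LINC01833 missed the threshold (adjusted p = 0.0506 in edgeR), and LINC00662 passed when the block was joined to the offset (adjusted p = 0.0259). The summed difference of 121 CPM was 179 after TMM scaling, 77.1 over transcripts with a control mean of at least 1 CPM and 88.0 without the most abundant transcript. The largest rise, in LINC00452, ran from 3.05 to 5.60 on the log2 scale over the alternatives, lowest with limma's added 1 CPM. The cause of these shifts was not tested.

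Log2 fold changes that changed sign, of which NTSR1 alone had passed the test, did so with scaling by library totals in LINC00460 (-0.057), LINC00662 (-0.0020), ANKRD9 (-0.036), KMT2E (-0.033), DUSP6 (-0.041) and UQCRFS1 (-0.034), with limma on log2(CPM + 1) in LINC00460 (-0.046), ANKRD9 (-0.16), KMT2E (-0.036), DUSP6 (-0.024) and UQCRFS1 (-0.038), with no low-count filter in LINC00460 (-0.030), ANKRD9 (-0.0097), KMT2E (-0.0036), DUSP6 (-0.012) and UQCRFS1 (-0.0073), with the GC and length offset in LINC00116 (-0.25), ANKRD9 (-0.27), NTSR1 (-0.22), DUSP6 (-0.0093) and MUC20 (-0.061), with the replicate block in ANKRD9 (-0.046), and with the replicate block with the GC and length offset in LINC00116 (-0.25), ANKRD9 (-0.34), NTSR1 (-0.22) and MUC20 (-0.060). NTSR1 had passed as higher (0.21, edgeR adjusted p = 0.0163). It passed as lower with the GC and length offset (edgeR adjusted p = 0.0142) and with the block joined to it (edgeR adjusted p = 0.0177). KMT2E, which had not passed, was called higher in these fits (0.36 and 0.35, edgeR adjusted p = 0.00265 and 0.00568). With 1 library left out, the log2 fold changes ran for LINC00116 from -0.023 to 0.31, LINC01578 from -0.13 to 0.96, LINC00662 from -0.046 to 0.32, ANKRD9 from -0.45 to 0.29, CHD1L from -0.078 to 0.019, DUSP6 from -0.066 to 0.22 and UQCRFS1 from -0.065 to 0.16. Depth limits the transcripts that had few counts in 1 group, where 3 counts stand for 0.158 to 0.210 CPM.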

Other observations

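Below the threshold of 1 CPM stood 1387 further LINC names, 650 of them with no count in any library. Their summed level was 74.3 ± 7.05 CPM in control and 133 ± 11.3 CPM in DHA libraries (SD, n = 3), and every DHA library lay above every control library. Of the 50 that were tested, 20 were called higher and 2 lower by edgeR's adjusted p, against 29.6% and 30.1% of all tested genes. These counts are a description, since the filter on low counts chose the 50 by their levels. Among genes with a mean of 1 to 5 CPM, a range above that of the 50, the shares were 31.2% and 13.5%. No share was counted for tested genes at the level of the 50, so their split is not read as a trait of LINC transcripts. LINC names with at least 1 count numbered 456, 471 and 465 in the control libraries and 564, 614 and 561 in the DHA libraries, although the DHA libraries were not the deeper ones as a group. With no count in any control library and at least 1 count in every DHA library there were 36 LINC names, against 4 the other way round, and 753 and 201 over all gene names. The number of all gene names with a count was 24331 to 24416 in control and 25856 to 27064 in DHA libraries; its part in the LINC counts was not tested.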
